A study of Mus musculus with 24 samples.

Results

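The 7 genes described here mark serotonergic neurons or receive their signal: *Tph2*, *Fev*, *Slc6a4*, *Htr1a*, *Htr1b*, *Htr2a* and *Htr7*. They were chosen by name from the 54446 genes counted in each library and matched to the counts by Ensembl identifier. RNA was sequenced from 24 libraries, the secondary prosencephalon (SP) and the diencephalon, midbrain and hindbrain (DMH) of 12 mouse embryos at E14.5. By the labels, the 8 groups were male and female SP and DMH of *Tfap2b*+/+ controls and *Tfap2b*-/- mutants, with 3 embryos each. All embryos came from matings of *Tfap2b*+/- mice, and the mutant allele carries a PGK-neo cassette in an exon of *Tfap2b*, which encodes the transcription factor AP-2β. The allele is present in all cells of the embryo, and gene counts do not tell exons before the cassette from those after it. *Tfap2b* itself stood at 378 ± 61.0 CPM (gene counts scaled to the library's total, mean ± SD) in control DMH (n = 6) and at 53.2 ± 2.48 in mutant DMH (n = 5), with 281 to 435 CPM in the controls, 50.4 to 56.6 in these mutants and 51.7 in the embryo left out, female mut3. The SP held 3.89 ± 0.288 CPM in controls and 3.82 ± 0.735 in mutants.

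Serotonin is made by neurons of the raphe nuclei, which are born along the ventral midline of the hindbrain and send axons forward into the forebrain and down to the spinal cord. A cascade of transcription factors, among them *Gata2*, *Gata3*, *Lmx1b* and *Fev*, turns on the genes for serotonin synthesis, storage and re-uptake. The receptors sit mostly on other neurons, and in the embryo serotonin is known to act on growing axons before it acts at synapses.

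The first 3 members define the neuron. *Fev* (Pet-1; chr1:74881509-74885419, minus strand, GRCm38) is an ETS-family transcription factor largely restricted to serotonergic neurons in the brain. *Tph2* (chr10:115078641-115185022, minus strand) encodes the brain form of tryptophan hydroxylase, the rate-limiting enzyme of serotonin synthesis. *Slc6a4* (chr11:76998603-77032340, plus strand) encodes the serotonin transporter that takes the transmitter back up. The other 4 members are G protein-coupled receptors. *Htr1a* (chr13:105443639-105448122, plus strand) and *Htr1b* (chr9:81628291-81633828, minus strand) encode Gi-coupled receptors that also serve as autoreceptors, on the cell body and on the axon terminal. *Htr2a* (chr14:74640840-74709494, plus strand) encodes a Gq-coupled receptor, and *Htr7* (chr19:35958734-36057507, minus strand) a Gs-coupled receptor.

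The bases upstream of the first 3 genes are shown because these genes define the serotonergic neuron and were all low in 1 library (female mutant 2, DMH), and those of *Htr1b* because it was the member whose window held an AP-2 motif. Each run holds the 250 bases before the RefSeq start on GRCm38.p6, written 5′ to 3′ on the strand of the gene. Capitals mark matches, on either strand, to the GATA motif AGATAA, the ETS core CGGAA, which is the kind of site that *Fev* binds, and the AP-2 motif GCCNNNGGC. The windows lie at chr10:115185023-115185272 for *Tph2*, chr1:74885409-74885658 for *Fev*, chr11:76998347-76998596 for *Slc6a4* and chr9:81633833-81634082 for *Htr1b*.
Tph2: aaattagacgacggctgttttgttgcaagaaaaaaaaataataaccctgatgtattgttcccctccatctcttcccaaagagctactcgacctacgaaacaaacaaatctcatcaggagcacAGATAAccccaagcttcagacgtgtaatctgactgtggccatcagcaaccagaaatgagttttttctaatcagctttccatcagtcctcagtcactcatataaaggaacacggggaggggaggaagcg
Fev: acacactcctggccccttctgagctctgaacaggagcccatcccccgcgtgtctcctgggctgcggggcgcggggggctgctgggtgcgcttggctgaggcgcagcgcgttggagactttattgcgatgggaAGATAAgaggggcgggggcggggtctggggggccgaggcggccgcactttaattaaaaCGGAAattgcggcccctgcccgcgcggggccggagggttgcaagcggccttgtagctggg
Slc6a4: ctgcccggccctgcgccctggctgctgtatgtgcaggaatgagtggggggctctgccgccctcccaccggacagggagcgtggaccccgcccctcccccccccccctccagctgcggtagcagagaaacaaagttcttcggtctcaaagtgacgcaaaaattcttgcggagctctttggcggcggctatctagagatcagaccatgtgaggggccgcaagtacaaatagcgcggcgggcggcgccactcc
Htr1b: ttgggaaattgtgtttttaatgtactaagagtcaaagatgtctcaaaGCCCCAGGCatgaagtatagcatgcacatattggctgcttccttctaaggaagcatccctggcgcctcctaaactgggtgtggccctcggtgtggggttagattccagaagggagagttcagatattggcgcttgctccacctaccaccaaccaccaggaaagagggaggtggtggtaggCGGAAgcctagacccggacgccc
AGATAA began 128 bases before the start of *Tph2* and 118 bases before that of *Fev*. CGGAA began 60 bases before the start of *Fev* and 23 bases before that of *Htr1b*, and GCCNNNGGC 203 bases before that of *Htr1b*. The windows of *Slc6a4*, *Htr1a*, *Htr2a* and *Htr7* held none of the 3 motifs. All 3 are common: of 32851 mouse promoter windows of the same length, 9.99% held AGATAA, 25.2% CGGAA and 13.7% GCCNNNGGC. A match is a description of the letters only.

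Libraries held between 24.7 M and 66.8 M counts on genes, with a median of 32.1 M. The 12 SP libraries held 478 to 1105 CPM of summed telencephalic markers (*Emx1* and *Neurod6*) against 23.6 to 38.4 CPM in DMH. The SP libraries held at most 0.837 CPM of summed midbrain and hindbrain markers (*En1*, *En2* and *Pax7*) against 91.7 to 199 CPM in DMH. The embryo female mut3 did not enter the fits unless stated, a choice taken from the study. Its DMH library held 574 CPM of summed skeletal muscle markers, where the other 11 held 5.37 to 7.49. Both libraries labelled female control 2 carried Y-linked transcripts (121 and 135 CPM), which stood at or near 0 in the other libraries labelled female. They held *Xist* at 0.0902 and 0.0344 CPM. The other libraries labelled female held 170 to 929 CPM of *Xist*, and those labelled male at most 0.274. By these transcripts both libraries came from a male embryo, against the label. They stayed in the group of their label. Results without them are given for the tests within females and between the sexes, and for some other statements.

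DMH pieces also differed in how far back they reached. *Hox* genes of paralog groups 4 to 8 mark the caudal hindbrain and the spinal cord, and the summed CPM of 15 such genes was 241 to 451 in 8 DMH libraries and 0.105 to 0.405 in the other 4. The 4 libraries without these counts were female control 1, female mutant 1, female mutant 2 and male mutant 2. The class is a property of the dissected piece and no group of the study. It is not balanced, since 1 of 6 controls and 3 of 6 mutants lacked the counts.

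The first comparison asked where in the brain these genes were used. In controls, all 7 members were higher in DMH than in SP, by a log2 fold change of 0.69 to 8.02, and the genes that define the serotonergic neuron led the order. A gene counted as higher or lower where edgeR's quasi-likelihood test gave an FDR under 0.2 over all genes tested and the log2 fold change was larger than 0.5 in size, the limits used in the study. By this rule 21.2% of all 17196 genes tested were higher in DMH, and 35.9% differed in either direction.

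*Fev* was nearly absent from SP. In control SP it stood at 0 counts in 5 of 6 libraries and at 1 count in male control 2, while control DMH ran from 1.93 CPM through a median of 2.16 to 2.87 CPM (51 to 97 counts). Every DMH library lay above every SP library. A count of 0 allows up to 3 counts, which were worth 0.0455 to 0.123 CPM depending on the library, and such limits cover counting error only. Over the 6 libraries of each region, 448 counts stood against 1, a ratio per library size of 458 with an exact 95% counting interval of 81.8 to 18141. The fitted log2 fold change of 8.02 (SE 0.36, adjusted p = 1.25e-10 in edgeR) depends on the prior count.

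*Tph2* ran in control DMH from 3.21 CPM through a median of 5.18 to 6.39 CPM, and in control SP from 0.137 through 0.187 to 0.478 CPM. The SP values rested on 5 to 14 counts per library, above the 3 counts that a 0 allows, and no SP library reached the lowest DMH library. The log2 fold change was 4.49 (SE 0.25, adjusted p = 9.55e-10 in edgeR). *Slc6a4* ran from 5.71 through 8.71 to 10.6 CPM in control DMH and from 0.262 through 0.331 to 0.716 CPM in control SP. Here too the regions did not overlap, with a log2 fold change of 4.41 (SE 0.21, adjusted p = 3.94e-10 in edgeR). Female control 2 was the SP library with the most *Tph2* and *Slc6a4*.

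The receptors were present in both regions, and higher in DMH. *Htr1b* ran from 7.94 through 12.0 to 17.9 CPM in control DMH and from 1.33 through 1.72 to 3.51 CPM in control SP, a log2 fold change of 2.59 (SE 0.17, adjusted p = 7.32e-09 in edgeR). *Htr7* ran from 6.24 through 11.5 to 14.1 CPM in DMH and from 1.60 through 2.07 to 3.79 CPM in SP, a log2 fold change of 2.18 (SE 0.18, adjusted p = 1.57e-07 in edgeR). *Htr1a* ran from 2.49 through 5.02 to 6.19 CPM in DMH and from 0.766 through 1.26 to 1.92 CPM in SP, a log2 fold change of 1.90 (SE 0.18, adjusted p = 2.84e-07 in edgeR). None of these receptors overlapped between the regions, so that 6 members did not overlap in controls, where 21% of all genes tested lay higher in every DMH library than in any SP library. Male control 1 was the highest control SP library for all 3, and it held 323 CPM of summed thalamic markers where the other control SP libraries held 139 to 183, whose part in these levels was not tested. *Htr2a*, in contrast, ran from 6.01 through 8.10 to 11.0 CPM in DMH and from 3.58 through 5.77 to 6.30 CPM in SP. The lowest DMH library of *Htr2a* lay below the highest SP library, and the log2 fold change was the smallest of the members, 0.69 (SE 0.12, adjusted p = 0.000118 in edgeR).

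**Figure D1:**
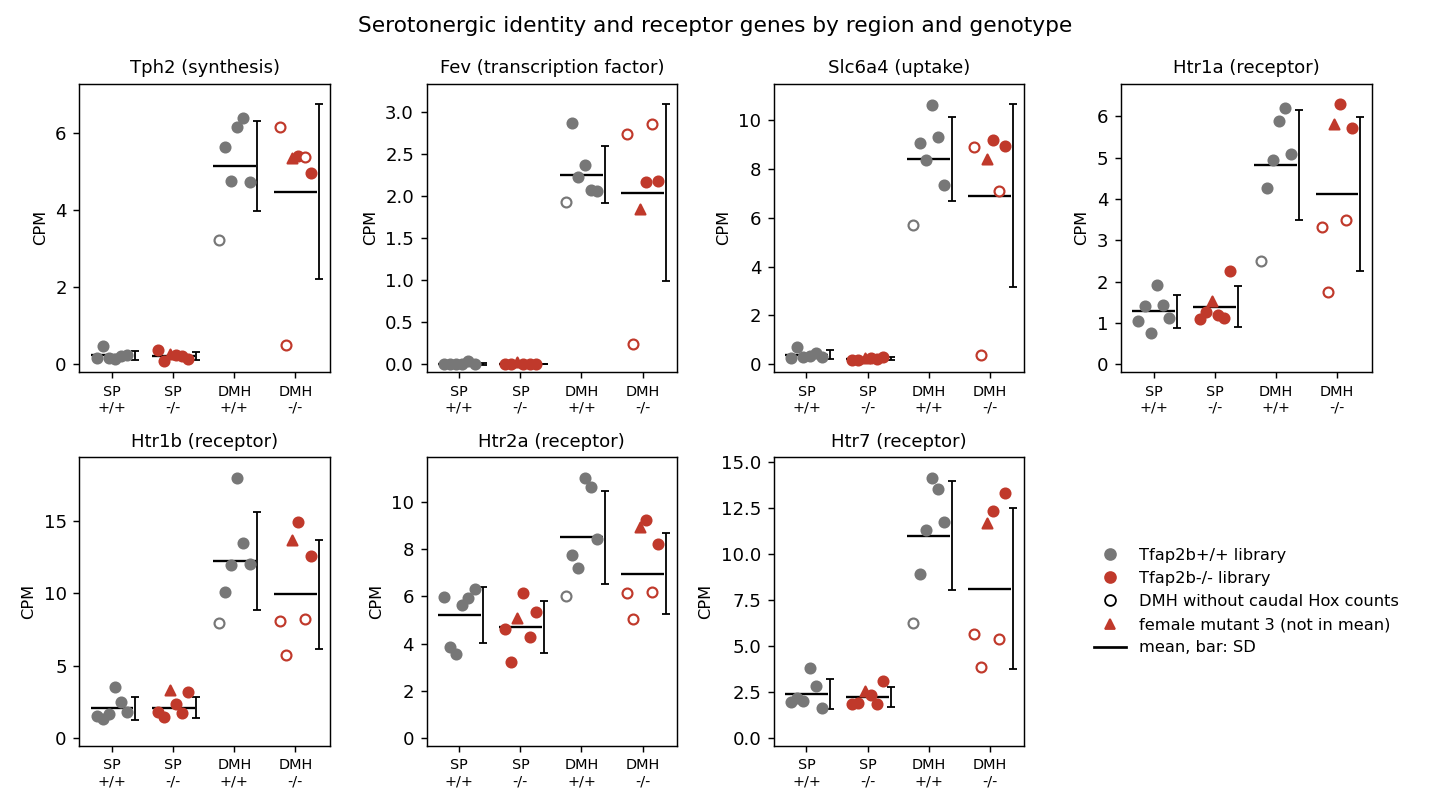
Level of each member in each of the 24 libraries, in CPM (vertical axis), by region and genotype (horizontal axis). Grey points are controls and red points mutants, open points are DMH pieces without caudal *Hox* counts, triangles are female mut3, lines are group means without female mut3 and bars are SDs. *Fev*, *Tph2* and *Slc6a4* lie near 0 in SP. The open red point far below the other mutants in these 3 genes is female mutant 2.

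In mutants the same comparison gave the same calls, with all 7 members higher in DMH where 20.3% of 17148 genes tested were higher. The log2 fold change was 4.32 (SE 0.60) for *Tph2* and 4.83 (SE 0.66) for *Slc6a4*, with adjusted p = 0.00013 and 0.000103 in edgeR's test. *Fev* was at 0 counts in the 5 SP libraries and at 375 counts over the 5 DMH libraries, at least 115-fold higher when 3 counts are allowed over the SP group. Female mut3, which was left out of these fits, held 1 *Fev* count in SP. The receptors followed with log2 fold changes of 2.18 for *Htr1b* (SE 0.22), 1.76 for *Htr7* (SE 0.28), 1.47 for *Htr1a* (SE 0.27) and 0.51 for *Htr2a* (SE 0.17, adjusted p = 0.0235 in edgeR). Over all 6 mutants, 5 members lay higher in every DMH library than in any SP library, as did 18.5% of all genes tested. The exceptions were *Htr2a* and *Htr1a*, whose DMH level of 1.75 CPM in female mutant 2 lay below the SP level of 2.27 CPM in male mutant 3. The call for *Htr2a* lay at the edge of the fold threshold. It was lost without the DMH library of male mutant 1 (0.47) or of female mutant 1 (0.48) and without the SP library of male mutant 2 (0.46) or of female mutant 2 (0.44). The difference between mutants and controls in these regional contrasts was tested as an interaction, and is given with the genotype results.

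Levels of different genes can be compared only per length. Per kb of exon, control DMH held *Htr7* at 3.23 ± 0.869 CPM per kb (SD, n = 6), *Htr1b* at 2.59 ± 0.717, *Slc6a4* at 1.85 ± 0.377, *Tph2* at 1.79 ± 0.406, *Htr2a* at 1.52 ± 0.350, *Fev* at 1.40 ± 0.210 and *Htr1a* at 1.07 ± 0.297. Neighbours in this order differed by less than the larger of their SDs, except *Htr1b* and *Slc6a4* (by 0.734) and *Fev* and *Htr1a* (by 0.323). Within libraries, *Htr7* lay above *Htr1b*, *Htr1b* above *Slc6a4* and *Tph2* above *Htr2a* in 6 of 6, *Fev* above *Htr1a* in 5 of 6, *Slc6a4* above *Tph2* in 4 of 6 and *Htr2a* above *Fev* in 3 of 6. In control SP the order began with *Htr2a* at 0.929 ± 0.210 CPM per kb and *Htr7* at 0.701 ± 0.233 and ended with *Slc6a4* at 0.0874 ± 0.0378, *Tph2* at 0.0794 ± 0.0441 and *Fev*, at 0 in all libraries but one. In SP, *Htr2a* and *Htr7* differed by 0.228, less than the larger of their SDs, with *Htr2a* above in 5 of 6 libraries.

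Other genes of the pathway were read from 3 lists. Of 9 factors that specify serotonergic neurons or their domain, 8 were higher in control DMH and 1 was lower, with a list median log2 fold change of 6.23 against -0.0029 over all genes. *Gata3* (6.95, SE 0.24) and *Lmx1b* (6.23, SE 0.29), which act upstream of *Fev*, were among the higher genes, and so was *Gata2* (3.65, SE 0.11). The lower one was *Insm1* (-1.30, SE 0.15), a factor of dividing neural precursors and newborn neurons in many parts of the brain. Of 10 genes for serotonin synthesis, storage and breakdown, 3 were higher, 1 was lower and 6 did not pass, and the list median was 0.17. *Ddc*, the decarboxylase that completes serotonin synthesis, was higher (2.74, SE 0.19), and so were *Gch1* (1.74, SE 0.17) and *Gchfr* (1.79, SE 0.37), the enzyme that starts the synthesis of the hydroxylase cofactor and its regulator. *Spr*, a later enzyme of the same route, was lower (-0.69, SE 0.09). *Slc18a2*, the vesicular transporter shared by all monoamine neurons, gave 0.10 (SE 0.18), and *Tph1*, the hydroxylase of peripheral tissues, -0.061 (SE 0.31). Of the 10 other receptor genes, 7 were tested, of which 4 were higher (*Htr1d*, *Htr4*, *Htr5a* and *Htr5b*, by 1.28 to 2.46) and 1 was lower, the ion channel subunit *Htr3a* (-0.89, SE 0.18). *Htr2c* and *Htr6* did not pass, and *Htr1f*, *Htr2b* and *Htr3b* were too low to be tested. Many of these genes are also used by cells other than serotonergic neurons.

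**Figure D2:**
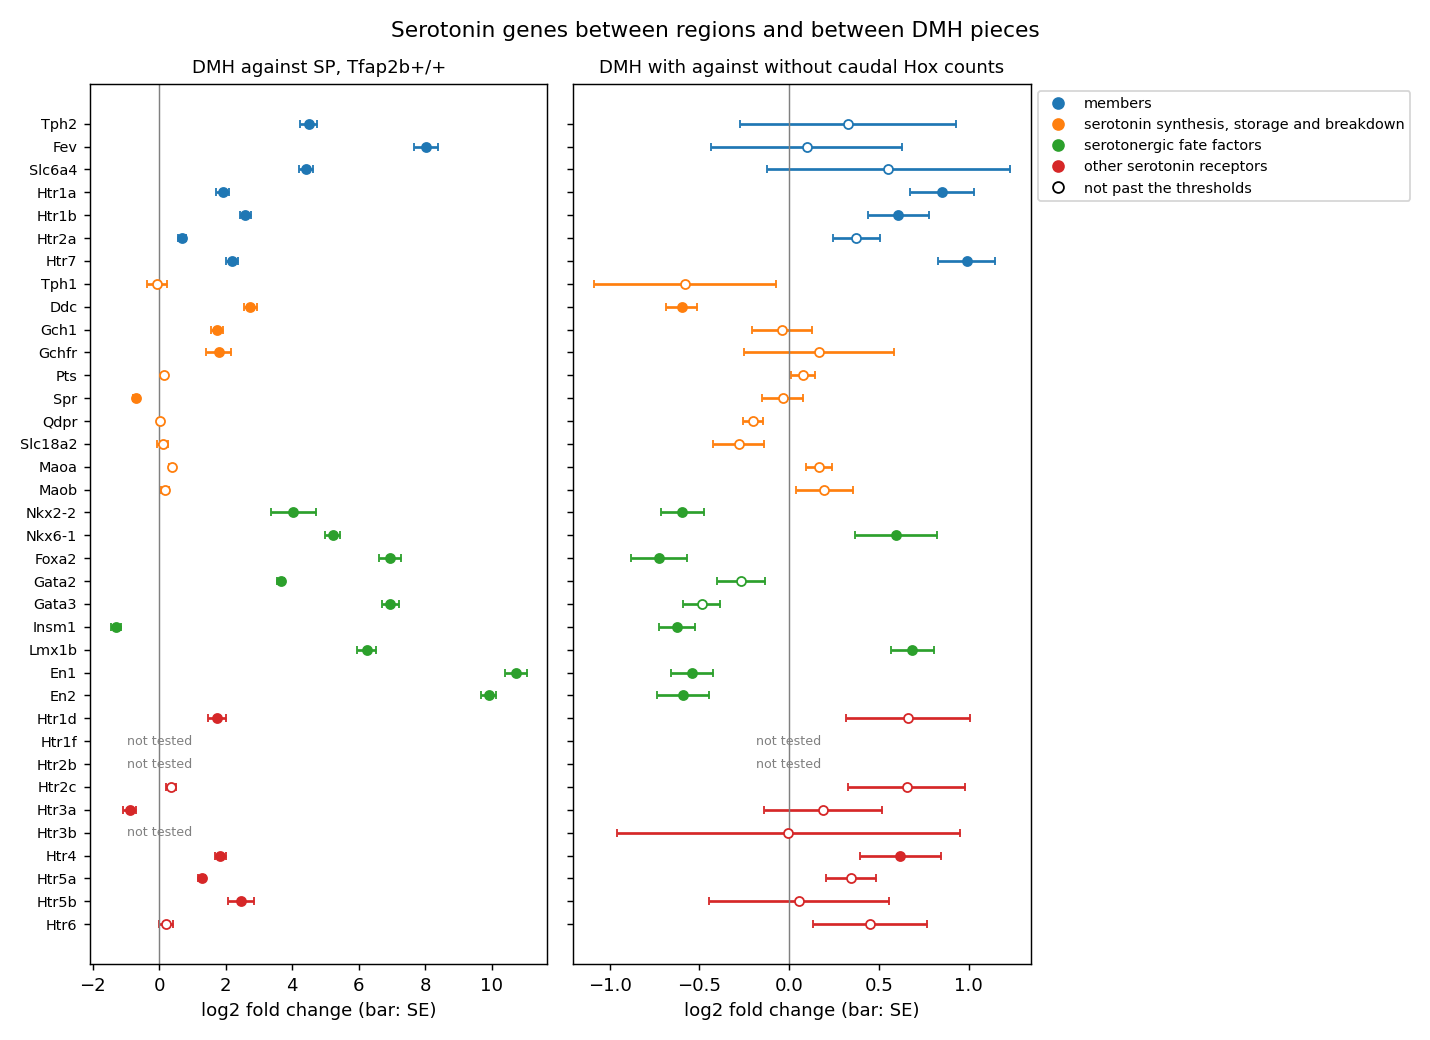
Log2 fold change (horizontal axis, bars are SEs) of the 7 members and the 29 other serotonin genes (vertical axis), in control DMH against control SP (left) and in DMH pieces with against without caudal *Hox* counts (right, members and lists in the same order). Filled points passed the thresholds and open points did not. The members lie right of 0 between regions, where the fitted value of *Fev* depends on the prior count, while between pieces *Htr1a*, *Htr1b* and *Htr7* are the filled members.

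The genotype comparison asked whether loss of *Tfap2b* changed these genes. In DMH, where *Tfap2b* is expressed, none of the 7 members passed the thresholds in edgeR's test, and 0.0523% of 17223 genes tested passed. At an unadjusted p under 0.05 there were 2 members in edgeR's quasi-likelihood test (*Htr2a* and *Htr7*), where 2590 of the 17223 genes reached it. The likelihood ratio test of edgeR and DESeq2 each had 3 (*Htr1b*, *Htr2a* and *Htr7*) and called 0 members. The adjusted p of these 3 was 0.308 to 0.334 in the likelihood ratio test and 0.259 to 0.296 in DESeq2. How many of all genes reached the limit in these 2 tools is not given here. All 7 fitted log2 fold changes were below 0, from -0.20 for *Fev* to -0.58 for *Htr7*. In bulk tissue, fewer cells of a type and less RNA per cell cannot be told apart.

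For the genes of the serotonergic neuron, a single library set the value. *Tph2* stood at 6.14 CPM in female mutant 1, 0.491 in female mutant 2, 5.41 in male mutant 1, 5.36 in male mutant 2 and 4.95 in male mutant 3, against 3.21 to 6.39 CPM in the 6 controls. The mutants other than female mutant 2 lay inside the range of the controls. The log2 fold change was -0.29 (SE 0.42, adjusted p = 0.73 in edgeR) with female mutant 2 and 0.042 (SE 0.16, adjusted p = 0.93 in edgeR) without it. *Fev* stood at 2.74, 0.246, 2.18, 2.87 and 2.18 CPM in the same 5 libraries, against 1.93 to 2.87 CPM in controls. Its log2 fold change was -0.20 (SE 0.38, adjusted p = 0.795 in edgeR), and 0.15 (SE 0.14, adjusted p = 0.679 in edgeR) without female mutant 2. *Slc6a4* stood at 8.88, 0.386, 9.20, 7.11 and 8.95 CPM against 5.71 to 10.6 CPM in controls. The log2 fold change of *Slc6a4* moved from -0.39 (SE 0.50, adjusted p = 0.696 in edgeR) to -0.020 (SE 0.15, adjusted p = 0.968 in edgeR) without that library. With female mut3, which held 5.34 CPM of *Tph2*, 1.85 of *Fev* and 8.42 of *Slc6a4*, the log2 fold changes were -0.17, -0.20 and -0.25.

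Among the receptors, *Htr7* stood at 5.65 CPM in female mutant 1, 3.86 in female mutant 2, 12.3 in male mutant 1, 5.36 in male mutant 2 and 13.3 in male mutant 3, against 6.24 to 14.1 CPM in controls. The 3 mutant pieces without caudal *Hox* counts lay below every control and the 2 with them among the controls. Its log2 fold change was -0.58 (SE 0.25, adjusted p = 0.328 in edgeR). *Htr1a* stood at 3.32, 1.75, 6.29, 3.49 and 5.71 CPM in the same libraries against 2.49 to 6.19 CPM in controls, a log2 fold change of -0.35 (SE 0.22, adjusted p = 0.413 in edgeR). *Htr1b* gave -0.39 (SE 0.18, adjusted p = 0.332 in edgeR) and *Htr2a* -0.34 (SE 0.12, adjusted p = 0.327 in edgeR), with 5.72 to 14.9 and 5.05 to 9.24 CPM in mutants. Without male mutant 1, *Htr1b* (-0.51, adjusted p = 0.169 in edgeR) and *Htr7* (-0.69, adjusted p = 0.191 in edgeR) passed the thresholds. That fit called 531 genes, where the main fit called 9 of 17223 tested. A single mutant piece with caudal *Hox* counts was then left.

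With the class of the piece as a further covariate, the genotype log2 fold changes of the receptors lay closer to 0. They were -0.15 for *Htr7* (SE 0.13), 0.041 for *Htr1a* (SE 0.15), -0.12 for *Htr1b* (SE 0.14) and -0.17 for *Htr2a* (SE 0.11). *Tph2*, *Fev* and *Slc6a4* gave -0.12, -0.15 and -0.12, with SEs of 0.53, 0.48 and 0.60. Restricted to the embryos with caudal *Hox* counts, 5 controls and 2 mutants, the members lay between -0.21 and 0.056. Each of these fits called 0.0228% of genes and 0 members, and neither had a member at an unadjusted p under 0.05.

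**Figure D3:**
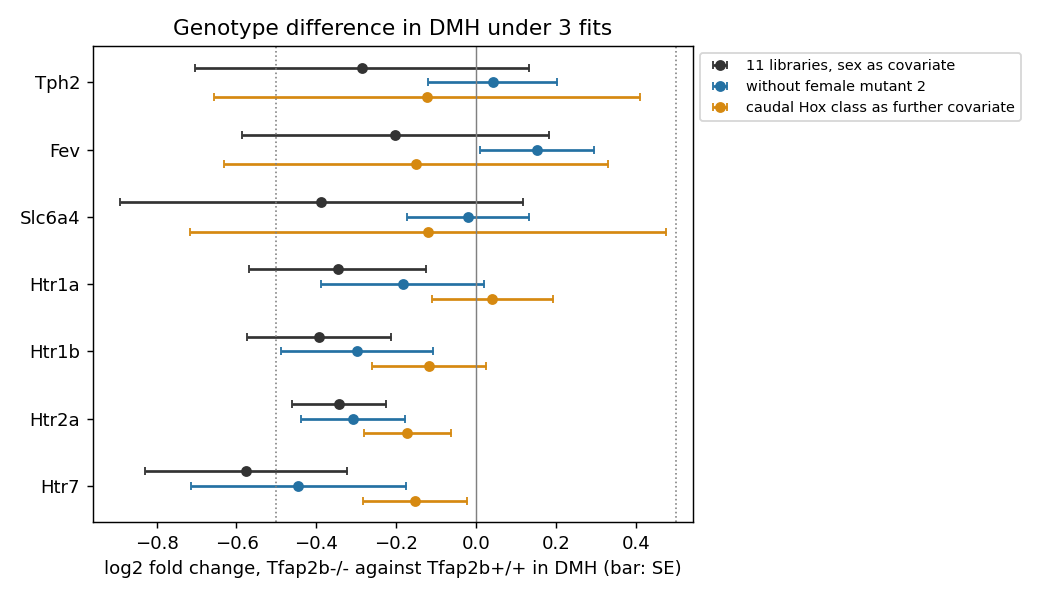
Genotype difference in DMH for each member (vertical axis) as log2 fold change of mutants against controls (horizontal axis, bars are SEs), in the fit of 11 libraries with sex as covariate, without female mutant 2, and with the caudal *Hox* class as a further covariate. Dotted lines mark the fold threshold of 0.5. *Tph2*, *Fev* and *Slc6a4* have long bars in both fits that hold female mutant 2, and the receptors move towards 0 with the class in the fit.

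Fitted within each sex with the filter on low counts, no member passed. In female DMH (0.00596% of 16773 genes called) the log2 fold changes ran from -0.31 for *Htr2a* to -0.89 for *Htr7*, with 2 members and 1492 of all genes at an unadjusted p under 0.05, and in male DMH (0.0236% of 16962 genes called) from -0.36 for *Htr2a* and *Htr7* to 0.12 for *Fev*, with 0. DESeq2 and the likelihood ratio test called 0 members in either sex. Without the filter on low counts, *Htr1a*, *Htr1b* and *Htr7* passed in female DMH, in a fit that called 535 of 29519 genes. The female fit set 2 mutants, both without caudal *Hox* counts, against 3 controls, of which 2 had them. Without female control 1, the control that lacked them, *Htr1a*, *Htr1b* and *Htr7* passed (log2 fold changes -0.86, -0.66 and -1.08), in a fit that called 1117 of 16848 genes. Without the library labelled female control 2, 0 members passed. The test of a difference between the sexes, the interaction of genotype and sex, called 0 of 7 members and 0% of 17555 genes, and 0 members by the other 2 tools, with none at an unadjusted p under 0.05. Leaving out the library labelled female control 2 gave log2 differences from -0.13 for *Htr2a* to 0.64 for *Fev*, and none passed. Without female mutant 1, which leaves female mutant 2 as the one female mutant, *Tph2*, *Fev* and *Slc6a4* passed in that interaction, with log2 differences of 3.02, 3.34 and 4.16, and that fit called 3 genes in all. Its female mutant arm was the 1 library already seen to be low in these genes, which is assumed there to vary like the other groups.

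In SP, 5 members had enough counts to be tested, and 0 passed, where edgeR called 0% of 16973 genes. The likelihood ratio test and DESeq2 also called 0 members, and 1 member, *Slc6a4*, had an unadjusted p under 0.05 in edgeR, as 861 of all genes did. *Slc6a4* stood at 0.262 to 0.716 CPM in controls and at 0.158 to 0.314 CPM in the 5 mutants, on 5 to 21 counts per library, with a log2 fold change of -0.78 (SE 0.34, adjusted p = 0.901 in edgeR). The ranges overlapped, and without the library labelled female control 2, the highest, the value was -0.52 (unadjusted p = 0.088 in edgeR). The receptors gave log2 fold changes between -0.16 and 0.10, with adjusted p from 0.917 to 0.998 in edgeR's test. *Tph2*, not tested, stood at 0.0947 to 0.379 CPM in mutant SP and 0.137 to 0.478 CPM in control SP. In female SP (0.0181% of 16615 genes called) and male SP (0% of 16562) 0 of 5 members tested passed in edgeR or the other 2 tools, with 0 at an unadjusted p under 0.05. In female SP without the library labelled female control 2, the receptors gave log2 fold changes from -0.28 to 0.40, and none passed. The interaction of genotype and region called 0 of 7 members and 0.00565% of 17684 genes, with no member at an unadjusted p under 0.05 in edgeR or DESeq2.

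The 29 other serotonin genes did not pass in DMH by genotype either: of the 27 tested, 0 were called in edgeR's test, and 5 had an unadjusted p under 0.05, as 2590 of 17223 genes did. The list medians of log2 fold change were 0.21 for the fate factors, 0.023 for synthesis, storage and breakdown and -0.13 for the other receptors, against -0.0025 over all genes. These values come from the fit without the piece class, which was not balanced between genotypes. Between pieces with and without caudal *Hox* counts, the medians of the same lists were -0.54, -0.038 and 0.40. List values with the class as covariate are not given here. Among the largest fitted values, none of which passed, were *Htr2c* (-0.61, SE 0.30), *Htr1d* (-0.59, SE 0.27) and *Nkx2-2* (0.43, SE 0.16).

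The last comparison set the DMH pieces with caudal *Hox* counts (7 libraries) against those without (4), with sex and genotype as covariates. *Htr7*, *Htr1a* and *Htr1b* were higher in the pieces with caudal *Hox* counts and 0 members were lower. By this rule 5.6% of 17555 genes tested were higher and 1.29% lower. In all 12 DMH libraries, the levels of the 4 receptors did not overlap between the classes and those of *Tph2*, *Fev* and *Slc6a4* did. Of all genes tested, 10% lay higher in each of the 8 libraries with caudal *Hox* counts than in any of the 4 without. Receptors and genes of the serotonergic neuron were not tested against each other. Markers of other tissues moved with the class as well, and their part in these results was not tested. In the 11 libraries of the fit, summed thalamic markers stood at 1354 to 1714 CPM without and 861 to 1107 with caudal *Hox* counts, choroid plexus markers at 85.0 to 428 and 433 to 655, and meningeal and mesenchymal markers at 698 to 861 and 872 to 1169. Blood markers overlapped, at 791 to 1496 and 733 to 1152 CPM, and so did markers of skeletal muscle (5.37 to 7.33 and 5.38 to 7.49), cartilage (71.3 to 84.2 and 63.9 to 88.2) and sensory ganglia (17.1 to 41.1 and 16.03 to 45.6). Female mut3, which had caudal *Hox* counts and was not in the fit, held 184 CPM of choroid plexus markers, 1709 of cartilage markers and 3259 of meningeal and mesenchymal markers.

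*Htr7* stood at 6.24 CPM in female control 1, 5.65 in female mutant 1, 3.86 in female mutant 2 and 5.36 in male mutant 2, and from 8.92 through a median of 12.3 to 14.1 CPM in the 7 pieces with caudal *Hox* counts. The log2 fold change was 0.99 (SE 0.16, adjusted p = 0.00528 in edgeR). *Htr1a* stood at 2.49, 3.32, 1.75 and 3.49 CPM in the same 4 libraries and from 4.26 through 5.71 to 6.29 CPM in the others, a log2 fold change of 0.85 (SE 0.18, adjusted p = 0.0151 in edgeR). *Htr1b* stood at 7.94, 8.11, 5.72 and 8.23 CPM and from 10.1 through 12.6 to 17.9 CPM, a log2 fold change of 0.61 (SE 0.17, adjusted p = 0.0439 in edgeR). The call for *Htr1b* was lost without male mutant 2 (0.51, adjusted p = 0.229 in edgeR). *Htr2a* stood at 6.01, 6.14, 5.05 and 6.17 CPM and from 7.21 through 8.45 to 11.0 CPM. Its log2 fold change of 0.38 (SE 0.13, adjusted p = 0.0814 in edgeR) stayed under the fold threshold. With female mut3 in the fit *Htr2a* passed as well, at 0.50 (adjusted p = 0.00814 in edgeR), where 13.4% of genes were called in either direction.

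*Tph2*, *Fev* and *Slc6a4* did not pass the thresholds between the classes. *Tph2* stood at 3.21 CPM in female control 1, 6.14 in female mutant 1 and 5.36 in male mutant 2, beside 4.73 to 6.39 CPM in the pieces with caudal *Hox* counts. *Fev* stood at 1.93, 2.74 and 2.87 CPM in the same 3 libraries, beside 2.06 to 2.87 CPM, and *Slc6a4* at 5.71, 8.88 and 7.11 CPM, beside 7.35 to 10.6 CPM. For *Slc6a4*, female control 1 and male mutant 2 thus lay below every piece with caudal *Hox* counts, as female mutant 2 did, and female mutant 1 lay among them. With all 4, the log2 fold changes were 0.33 for *Tph2* (SE 0.60, adjusted p = 0.769 in edgeR), 0.10 for *Fev* (SE 0.53, adjusted p = 0.931 in edgeR) and 0.55 for *Slc6a4* (SE 0.68, adjusted p = 0.645 in edgeR). Without male mutant 2 they were 0.60, 0.57 and 0.74, with adjusted p of 0.682 to 0.732 in edgeR. Without female mutant 2 they were 0.18, -0.043 and 0.40, and *Slc6a4* was then under the FDR limit (adjusted p = 0.139 in edgeR) and short of the fold threshold. Without the filter on low counts *Slc6a4* passed, at 0.56 (SE 0.13, adjusted p = 0.000492 in edgeR). Its log2 fold change was thus close to that of the main fit, while the SE was smaller. Under settings other than left-out replicates, 546 to 5213 genes were called between the classes, against 1210 in the main fit. Without the library labelled female control 2 the 3 values were 0.21, -0.091 and 0.49.

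**Figure D4:**
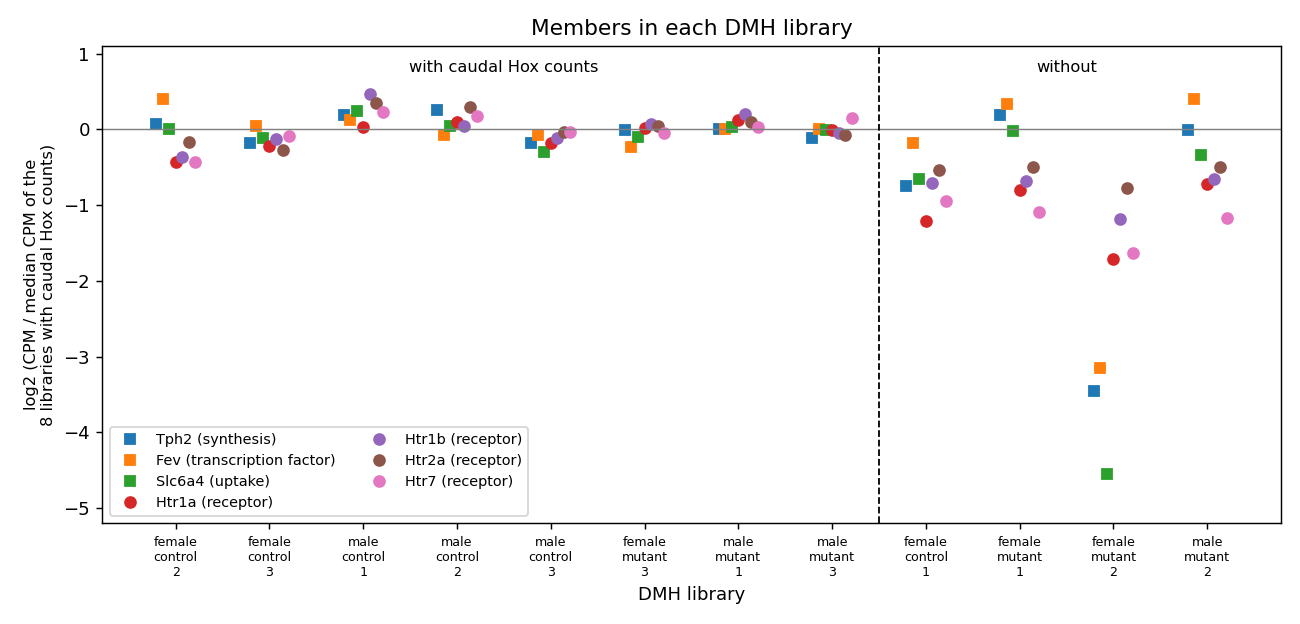
Level of each member in each of the 12 DMH libraries (horizontal axis), as log2 of its CPM over the median CPM of the 8 libraries with caudal *Hox* counts (vertical axis). Squares are the genes of the serotonergic neuron and circles the receptors, and the dashed line separates libraries with and without caudal *Hox* counts. The circles lie below 0 in all 4 libraries on the right, while the squares lie far below 0 in female mutant 2.

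Female mutant 2 held 14 counts of *Tph2*, 7 of *Fev* and 11 of *Slc6a4*, where the other 11 DMH libraries held 85 to 355, 51 to 143 and 151 to 604. Each of the 3 was above the 3 counts that a 0 allows, and low at the same time. The ratio of *Fev* to *Tph2* counts was 0.50 there and 0.325 to 0.60 in the other DMH libraries, and the ratio of *Slc6a4* to *Tph2* counts was 0.786 there and 1.33 to 1.81 in the others. Both ratios of female mutant 2 rest on these few counts, and a difference of its ratios from the others was not tested. Fate factors that act before *Fev* stood closer to the other pieces in that library. *Gata3* stood at 84.7 CPM, beside 83.6 to 90.8 CPM in the other 3 pieces without caudal *Hox* counts, *Gata2* at 29.2 beside 28.0 to 31.3, and *Nkx2-2* at 31.2 beside 23.1 to 25.7. *Lmx1b* stood at 22.8 CPM, below the 23.8 to 29.5 of the other 3. *Ddc* stood at 26.3 CPM beside 21.7 to 24.1 and *Slc18a2* at 26.5 beside 26.1 to 28.0. These genes are shared with other neurons of the midbrain and hindbrain, such as the *Gata2* and *Gata3* positive GABAergic neurons and the dopaminergic neurons.

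Values that mark the position of the piece moved with this library in part. *En1* and *En2*, which mark the midbrain and the rostral hindbrain around their border, stood at 35.5 and 56.6 CPM, below the other 3 pieces without caudal *Hox* counts (43.2 to 46.0 and 75.2 to 77.1) and above the 8 pieces with them. *Hox* genes of paralog groups 1 to 3, which are used from the second hindbrain segment backwards, summed to 0.211 CPM in female mutant 2, 0.0756 in female control 1, 1.84 in female mutant 1 and 19.5 in male mutant 2, and to 108 to 132 in the 8 other libraries. Female control 1 thus held about as little of these transcripts as female mutant 2, and it held 3.21 CPM of *Tph2*. Thalamic markers (*Gbx2*, *Lhx9*, *Rora*, *Tcf7l2* and *Slc17a6*) summed to 1714 CPM in female mutant 2, beside 1354 to 1587 in the other 3 and 853 to 1107 in the 8. The part of the dissection in the low *Tph2*, *Fev* and *Slc6a4* of female mutant 2 was not tested, and within this embryo it cannot be told apart from an effect of genotype. The other 4 mutants of these fits, and female mut3, held the 3 genes at 4.95 to 6.14, 1.85 to 2.87 and 7.11 to 9.20 CPM.

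Among the lists of related genes, calls between the piece classes were mostly of fate factors. Of 9 fate factors, 2 were higher with caudal *Hox* counts, *Lmx1b* (0.69, SE 0.12) and *Nkx6-1* (0.59, SE 0.23), and 5 were lower, by 0.54 to 0.73 in size: *Nkx2-2*, *Foxa2*, *Insm1*, *En1* and *En2*. The list median was -0.54 against 0.0046 over all genes. Of 10 genes for synthesis, storage and breakdown, 1 passed, *Ddc* (-0.60, SE 0.09). Among 8 other receptors tested, 1 passed, the Gs-coupled *Htr4* (0.62, SE 0.23), and the list median was 0.40.

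Across the 11 DMH libraries, the members were described by the correlation of log2 CPM, with no test, since libraries share sex, genotype and piece class. *Tph2* and *Slc6a4* were the closest pair (Pearson's r = 0.989), and r was 0.851 without female mutant 2. *Tph2* and *Fev* gave 0.972, and 0.525 without that library, and *Fev* and *Slc6a4* 0.971, and 0.272 without it. The r was 0.912 to 0.956 among *Htr1a*, *Htr1b*, *Htr2a* and *Htr7*, and 0.887 to 0.936 without female mutant 2. Levels of these 4 did not overlap between the piece classes, so both ranges include the difference between classes. Their r within a class is not given here. *Fev* against the receptors gave 0.474 to 0.648 with female mutant 2 and -0.487 to -0.226 without it. *Slc6a4* against the receptors gave 0.642 to 0.785, and 0.609 to 0.755 without it, and *Tph2* gave 0.637 to 0.779, and 0.279 to 0.559 without it.

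Among 13325 protein-coding genes with a mean of at least 1 CPM, the 2 most like *Tph2* were *Slc6a4* and *Fev*, the 2 most like *Fev* were *Tph2* and *Slc6a4*, and the 2 most like *Slc6a4* were *Tph2* and *Fev*. The 5 most like *Tph2* also held *Vps36* (r = 0.966) and *Anxa1* (0.946), those most like *Fev* held *Vps36* (0.937) and *Slc17a8* (0.927), and those most like *Slc6a4* held *Anxa1* (0.959), *Vps36* (0.952) and *Gm49359* (0.939). Without female mutant 2, *Tph2* gave 0.673 with *Vps36* and 0.532 with *Anxa1*, *Fev* gave 0.275 with *Vps36* and 0.46 with *Slc17a8*, and *Slc6a4* gave 0.712 with *Anxa1*, 0.474 with *Vps36* and 0.676 with *Gm49359*. Within the 7 libraries with caudal *Hox* counts, *Vps36* and *Tph2* gave 0.257, *Anxa1* and *Tph2* 0.151 and *Slc17a8* and *Fev* 0.569. Among the members there, *Slc6a4* and *Tph2* gave 0.789, *Fev* and *Slc6a4* 0.346 and *Fev* and *Tph2* 0.225. *Slc17a8*, which encodes the vesicular glutamate transporter that many raphe neurons carry, stood at 3.86 CPM in female mutant 2 and at 7.33 to 11.0 CPM in the other 10.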

How the data were processed

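Per the labels, polyadenylated RNA was made into stranded (dUTP) libraries and sequenced as read pairs, 1 library per embryo and region. The authors deposited, for each library, raw counts of read pairs per gene, without normalization. The submitters' processing notes name cutadapt 2.4, STAR 2.6.1d, edgeR, mm10 and GRCm38.p6. The annotation release is not given in the sources used here. Of 54446 gene identifiers, 54409 matched a GENCODE vM21 symbol without the version suffix. The 4 lines that name no gene held 17.3 to 25.9% of a library's fragments and were left out. Of the 3 count columns of a library, that of the dUTP strand was tested, the unstranded one was an alternative and 1 entered no fit. No pair of libraries of a group was a copy of another (lowest chi-square per gene 9.62 over 24 pairs).

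Tests used edgeR 4.0.16 under R 4.3.3 (robust quasi-likelihood fit after filterByExpr and TMM, sex as covariate where both sexes entered), on all genes that passed the filter, with Benjamini-Hochberg adjustment over them. SEs are the absolute log2 fold change over the square root of F. CPM are TMM-normalized over 24 libraries. Correlations used log2 CPM with a prior count of 2. A DMH piece counts as having caudal *Hox* counts above a summed 100 CPM. Alternatives were RLE size factors, no filter, unstranded counts, the likelihood ratio test, DESeq2 1.42.0, an FDR under 0.05, no fold threshold, all samples, a replicate block, the piece class, embryos with caudal *Hox* counts, and each replicate left out. DMH and SP libraries of the same sex, genotype and number in the labels were read as 1 embryo. Their deviations from the group means correlated at 0.0658 to 0.595 (over 0.1 in 11 of 12 pairs). Upstream sequences are RefSeq's on GRCm38.p6, and all 7 members matched. Figures were drawn with matplotlib 3.10.9. Named genes are the members, the genes of the 3 serotonin lists, *Tfap2b*, the marker lists by their sums, and the 5 genes most like *Tph2*, *Fev* and *Slc6a4* each. A few genes of these lists are not reported here and were left out of the list counts and sums. The *Htr1b* sequence was chosen for printing after its motifs were seen. The members and lists were chosen with earlier results of these data known. Replicates are separate embryos, with controls described as littermates of mutants. Which embryos shared a litter is not given in the sources used here.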

Additional observations from a re-analysis of the deposited data

Results flagged for a closer look

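In 28 groups of 6 libraries, the library farthest from the others was compared with the range of its group, and 6 stood apart by Dixon's criterion, where chance gives about 1 in 20 groups. For 2 of the 6, *Fev* in SP, the criterion is met by construction, since 1 library holds a single count and the others hold 0. In mutant DMH, female mutant 2 stood at 0.491 CPM of *Tph2* beside 4.95 to 6.14 CPM in the others, and at 0.386 CPM of *Slc6a4* beside 7.11 to 9.20 CPM. In control SP, female control 2 stood at 0.478 CPM of *Tph2* beside 0.137 to 0.229 CPM. *Fev* was at 1 count in male control 2 (0.0350 CPM) and in female mut3 (0.0254 CPM) of SP, with the other libraries of their groups at 0. In mutant SP, male mutant 3 stood at 2.27 CPM of *Htr1a* beside 1.11 to 1.52 CPM.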

How the results depend on the processing

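Of 208 alternative counts of members called, 204 lay within 1.5 times the main count. Called members in DMH by genotype ran from 0 to 2 with replicates left out (2 without male mutant 1). In female DMH they were 3 without the filter on low counts and ran from 0 to 3 with replicates left out (3 without female control 1), and in the interaction of genotype and sex from 0 to 3 (3 without female mutant 1). The causes were not tested. Of 890 alternative values of single members, in the comparisons of regions, of genotype over both sexes, of genotype with region and of piece classes, 858 kept their direction and side of the threshold, 5 lost a call, 5 gained one and 22 changed sign, none of them a called value. For genotype in DMH, leaving out replicates moved *Tph2* from -0.72 to 0.042 and *Fev* from -0.48 to 0.15, and *Htr1a* became 0.041 with the piece class and 0.056 in embryos with caudal *Hox* counts. For genotype in SP, *Htr1b* was -0.0024 with RLE size factors, -0.010 without a filter, -0.0017 in DESeq2 and -0.11 to 0.16 with replicates left out, *Htr1a* -0.086 to 0.22 and *Htr7* -0.29 to 0.020. In the interaction with region, *Fev* was -0.21 with all samples and -0.18 to 1.38 with replicates left out, and *Tph2* -0.52 to 0.24. Between piece classes *Fev* ran from -0.091 to 0.57. *Slc6a4* passed there without the filter (0.56, SE 0.13, against an SE of 0.68 in the main fit).

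Genes called by genotype in DMH went from 9 to between 2 and 55 under other settings and to 531 without male mutant 1, in female DMH from 1 to 535 and 1117 (without the filter, without female control 1), in SP from 0 to 29, and between piece classes from 1210 to between 546 and 5213. With the embryo, as read from the labels, as replicate block, 7 members were higher in DMH in controls and 7 in mutants. Controls and mutants share only a number (r of -0.177 to 0.586). With that number as block, 0 members passed in DMH or SP, *Htr1a* in SP turned to -0.0064, and genes called in female DMH and female SP went from 1 to 41 and from 3 to 71. Depth limits *Fev*, *Tph2* and *Slc6a4* in SP, where 21 counts was the most in a library.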
